A study of Mus musculus with 42 samples.

Results

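The genes described are the epidermal growth factor (EGF) receptor Egfr, its ligands Tgfa, Areg, Hbegf, Ereg and Btc, and the feedback inhibitors Spry1, Spry2, Spred2 and Dusp6. They were chosen by symbol: every probe annotated with 1 of these 10 names was taken on both array designs of the study. Probes were found for 9 of the 10 genes, 1 probe each among 21997 on the first design and 14 probes among 36924 on the second. Areg was not analysed here, and none of the 10 genes encodes a Ras protein, so the Ras genes are described with the other genes of the pathway.

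The EGF receptor is a receptor tyrosine kinase of the basal keratinocyte. Its ligands are made as membrane proteins and released by proteases, and the bound receptor activates Ras, Raf, MEK and ERK in turn. Sprouty and Spred proteins and the phosphatase Dusp6 are induced by or act on this cascade and dampen it. In mouse skin, initiation with DMBA, a mutagen, followed by promotion with TPA, a phorbol ester, typically gives papillomas with an activating mutation of Hras, and some papillomas become squamous cell carcinomas.

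The study hybridised 42 mouse skin samples, each against a universal mouse reference RNA in the other dye of a 2-colour array. The first design held 6 squamous cell carcinomas, 10 papillomas labelled high risk, 10 arrays of papillomas labelled low risk and 6 untreated normal skins, and the second held 10 papillomas whose risk is labelled unknown. All tumours came from female Sencar mice initiated at 7-8 weeks of age and treated with DMBA/TPA, and the labels give neither strain nor age for the normal skins. The labels name whole tissue, no genotype, and for tumours no count of animals, so p-values measure the spread between these samples, which may share a mouse: 6 high-risk and 2 low-risk replicates carry a tumour code whose first part is shared with another's, though the full codes differ. In bulk tissue, fewer cells of a type and less RNA per cell cannot be told apart.

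Levels are log2 of sample over reference, centred on each array's median, so 1 unit is a doubling relative to the reference RNA. The deposited direction is not stated. Taken as reference over sample and turned, all 32 arrays of the first design correlated above 0 with each other (lowest r = 0.189). This bears on the array with exchanged dyes only, since turning all arrays leaves r unchanged. The median of the keratinocyte markers was above 0 on 32 of 32 arrays and that of internal organ markers on 1 of 32. Other lists were mixed: neutrophil markers were above 0 on 30 arrays, hair follicle on 21, adipocyte on 20 and muscle on 16. T cell markers were above 0 on 15, melanocyte on 11, endothelium on 6, macrophage on 4 and fibroblast on 3. The direction is likely from the keratinocyte and internal organ markers, and every sign below rests on it. A pair of low-risk arrays carries 1 tumour code, with the dyes exchanged. They were averaged as 1 tumour (r = 0.306 between them), leaving 9 low-risk and 31 replicates in all. The exchanged array correlated with others at r of up to 0.629, so its partner was not the closest array and the pairing rests on the code.

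Some libraries stand apart. Normal skin 1 and carcinoma 6 differed by a median of 0.065 log2 units over 16718 probes (r = 0.984), against 0.177 for the next closest pair of arrays, which puts at least 1 of these labels in doubt. The arrays were also clustered into 5 sets by their pattern of empty probes, named A to E here. The number of sets was chosen, and the sets are loose. This pattern correlated at r of 0.063 to 0.684 within sets and -0.179 to 0.267 between sets, so the 2 ranges overlap. Set A was made of high-risk papilloma 10 and 4 normal skins. In set B were 4 carcinomas, 1 high-risk papilloma, 3 low-risk papillomas and 1 normal skin, and in set C 2 carcinomas, 4 high-risk papillomas and normal skin 1. Set D held only low-risk papillomas and set E only high-risk papillomas 1 to 4, and the spread of values was wider there, with a median SD of 1.57 in set D and 1.59 in set E, against 1.00 in set A, 1.04 in set B and 0.70 in set C. For sets D and E, set and group cannot be told apart.

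In high-risk papillomas over normal skin, the receptor Egfr, its ligand Tgfa and the inhibitor Spred2 rose, between 1.74 and 2.29 times. These were 3 of 9 members past the test (limma, Benjamini-Hochberg adjusted p under 0.05 over 18904 probes), and no member was lower past it. The difference was above 0 for 7 of the 9 members and below 0 for Spry1 and Btc. Of all probes tested, 5.01% passed in either direction and 2.57% were higher. The median log2 difference was 0.80 over the 9 members and -0.0043 over all probes. In low-risk papillomas over normal skin, the ligand Hbegf rose 3.32-fold, 1 of 9 members where 7.55% of all probes passed and 3.94% were higher. In carcinomas over normal skin 0 of 9 members passed by limma, where 1.16% of all probes did, and 4 of 9 had an unadjusted p under 0.05, as did 11.3% of all probes. The 3 comparisons share the same 6 normal skins.

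**Figure D1:**
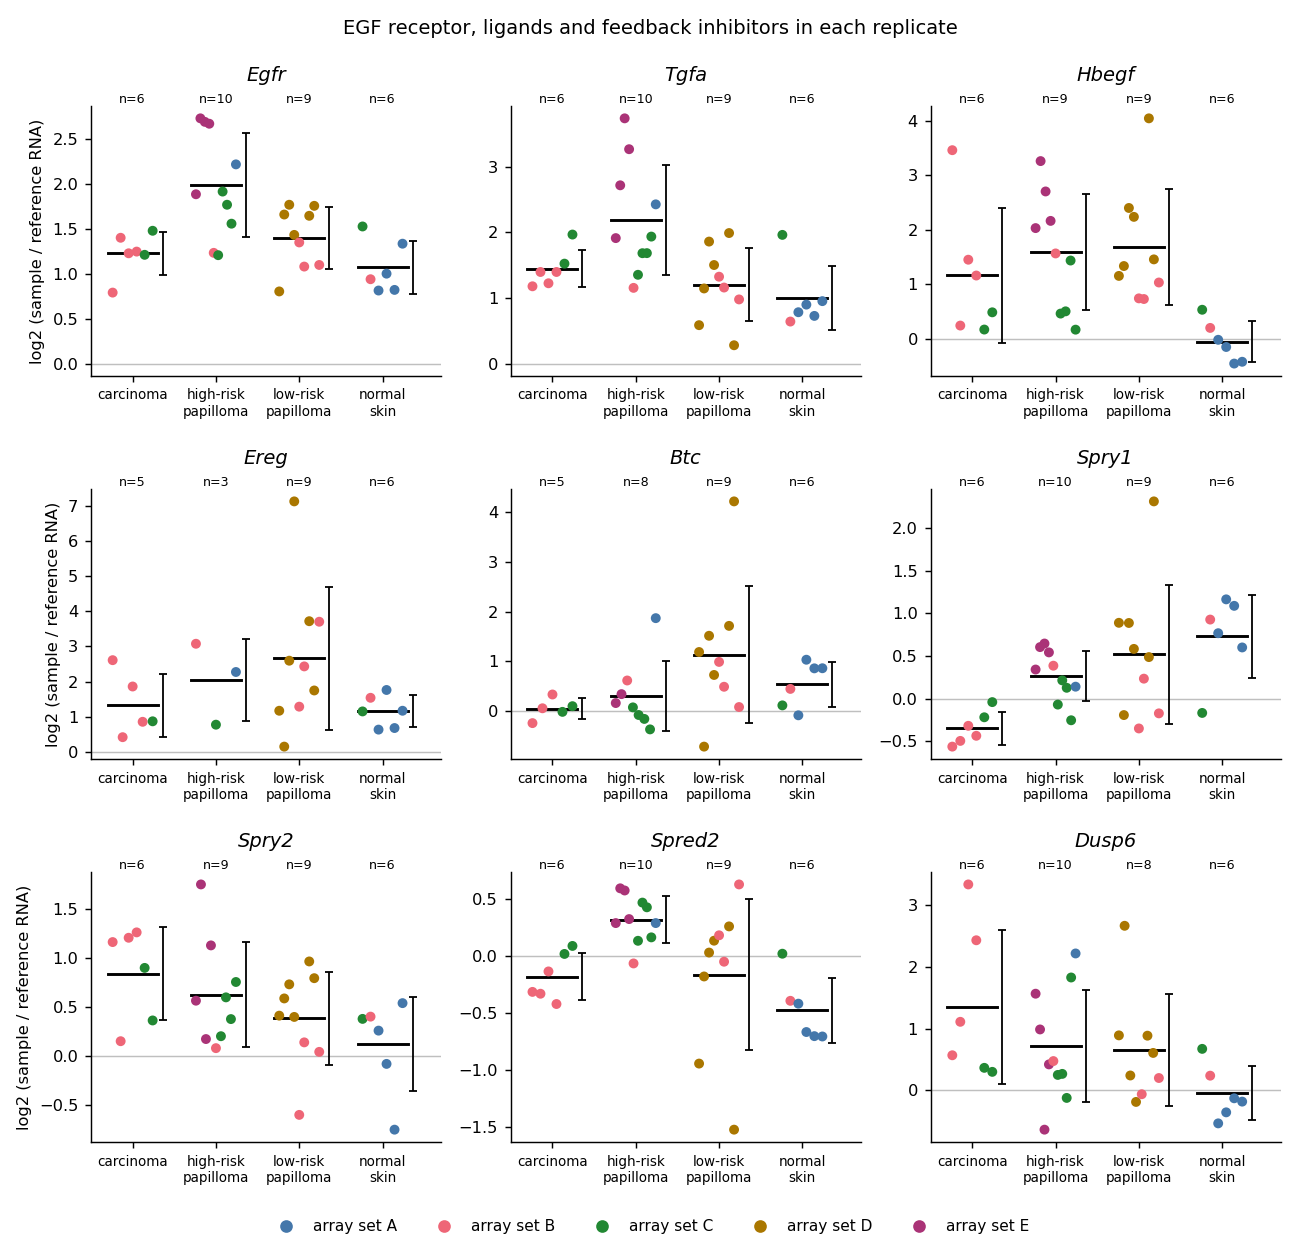
Level of each of the 9 genes in every replicate, as log2 of sample over reference RNA (y axis), with carcinomas left, then high-risk papillomas, low-risk papillomas and normal skin; points are coloured by array set, the horizontal line is the group mean and the bar beside it is 1 SD. Hbegf in low-risk papillomas lies wholly above normal skin (0.73 to 4.05 against -0.45 to 0.54), and the highest Egfr and Tgfa values belong to high-risk papillomas of set E.

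The only Egfr probe of the first design is annotated with a single transcript record, so its level may not stand for every transcript of the gene. Egfr had its highest level in high-risk papillomas. It ranged from 0.79 to 1.48 with a median of 1.24 in carcinomas, from 1.21 to 2.73 with a median of 1.90 in high-risk papillomas, from 0.80 to 1.77 with a median of 1.43 in low-risk papillomas and from 0.81 to 1.53 with a median of 0.97 in normal skin. All 10 high-risk papillomas lay above the normal skin mean, but the groups overlapped: normal skins 1 and 6, at 1.53 and 1.34, lay above the lowest high-risk papillomas. The mean was 1.99 ± 0.58 in high-risk papillomas (SD, n = 10) and 1.07 ± 0.29 in normal skin (SD, n = 6), a log2 difference of 0.92 ± 0.23 (SE), or 1.89-fold with a 95% interval of 1.37 to 2.60 (limma, adjusted p = 0.017). Carcinomas averaged 1.23 ± 0.24 (n = 6) and low-risk papillomas 1.40 ± 0.34 (n = 9). Neighbours in this order, high-risk, low-risk, carcinoma and normal skin, did not differ past the test, with adjusted p of 0.139, 0.762 and 0.935.

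Tgfa encodes transforming growth factor alpha, an autocrine ligand of keratinocytes. It ranged from 1.18 to 1.97 with a median of 1.40 in carcinomas, from 1.15 to 3.74 with a median of 1.92 in high-risk papillomas, from 0.28 to 1.99 with a median of 1.16 in low-risk papillomas and from 0.64 to 1.96 with a median of 0.84 in normal skin. High-risk papillomas 2, 3 and 4 were the highest of all replicates, and apart from normal skin 1 every normal skin lay below every high-risk papilloma. Tgfa averaged 2.19 ± 0.84 in high-risk papillomas (n = 10) and 0.99 ± 0.49 in normal skin (n = 6), 2.29-fold higher in high-risk papillomas with a 95% interval of 1.46 to 3.58 (log2 1.19 ± 0.32 SE, limma adjusted p = 0.0256). Carcinomas averaged 1.45 ± 0.28 and low-risk papillomas 1.20 ± 0.55. High-risk over low-risk papillomas, Tgfa differed by 0.98 ± 0.28 log2 units and missed the test (adjusted p = 0.0849), with 9 of 10 high-risk papillomas above the low-risk mean. Without high-risk papilloma 5, the only one of set B, the difference was 1.10 with an adjusted p of 0.0246. Blocked on array set it was 0.13 (adjusted p = 0.9999), and within set B 0.00033.

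Spred2, a membrane-bound inhibitor of Ras and Raf signalling, was below the reference RNA in most carcinomas and normal skins. It lay between -0.42 and 0.09 with a median of -0.22 in carcinomas, between -0.07 and 0.59 with a median of 0.31 in high-risk papillomas, between -1.52 and 0.63 with a median of 0.03 in low-risk papillomas, and between -0.70 and 0.02 with a median of -0.54 in normal skin. High-risk papilloma 5 alone overlapped normal skin, again through normal skin 1. Means were 0.32 ± 0.21 in high-risk papillomas (n = 10) and -0.48 ± 0.28 in normal skin (n = 6), a 1.74-fold difference with a 95% interval of 1.26 to 2.38 (log2 0.80 ± 0.22 SE, limma adjusted p = 0.0337). Carcinomas averaged -0.18 ± 0.21 and low-risk papillomas -0.16 ± 0.66, where low-risk papillomas 1 and 9 were lowest at -0.94 and -1.52.

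These 3 calls depend on the arrays compared. Of 20 alternative fits, Egfr kept its call in 15, Tgfa in 15 and Spred2 in 12, and not every fit is named here. With the array set as a block, the differences were 0.59 for Egfr (adjusted p = 0.357), 0.63 for Tgfa (adjusted p = 0.516) and 0.53 for Spred2 (adjusted p = 0.475), so none passed. In that fit 0.0635% of all probes passed, against 5.01% as reported. Within set A, high-risk papilloma 10 stood 1.23, 1.59 and 0.91 above the 4 normal skins for Egfr, Tgfa and Spred2 in mean level. With 1 papilloma in that arm, whose spread could not be measured, Tgfa passed there (adjusted p = 0.019), as did 12.1% of all probes. Within set B, 1 papilloma stood 0.29, 0.51 and 0.33 above 1 normal skin. Within set C, where the only normal skin is the doubted normal skin 1, the differences were 0.09, -0.30 and 0.28. Without normal skin 1 and carcinoma 6 all 3 kept their calls. The 4 papillomas of set E had medians of 2.68 for Egfr, 2.99 for Tgfa and 0.45 for Spred2, and the other 6 high-risk papillomas 1.66, 1.68 and 0.225, all above the normal skin medians. Leaving out normal skin 3 or 5 ended all 3 calls, leaving out normal skin 2, 4 or 6 ended those of Tgfa and Spred2, and Spred2 also lost its call without high-risk papilloma 2, 3 or 4. In these fits adjusted p reached 0.0533 for Egfr, 0.0664 for Tgfa and 0.0944 for Spred2. Blocking on the range, low or high, of the database numbers in the titles ended all 3 calls, and 0.296% of all probes passed. The low range holds normal skins 3 to 6 and no high-risk papilloma, so only normal skins 1 and 2 share a range with that group. Spred2, at 0.80 with an adjusted p of 0.0968, also lost its call without the exchanged array.

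**Figure D2:**
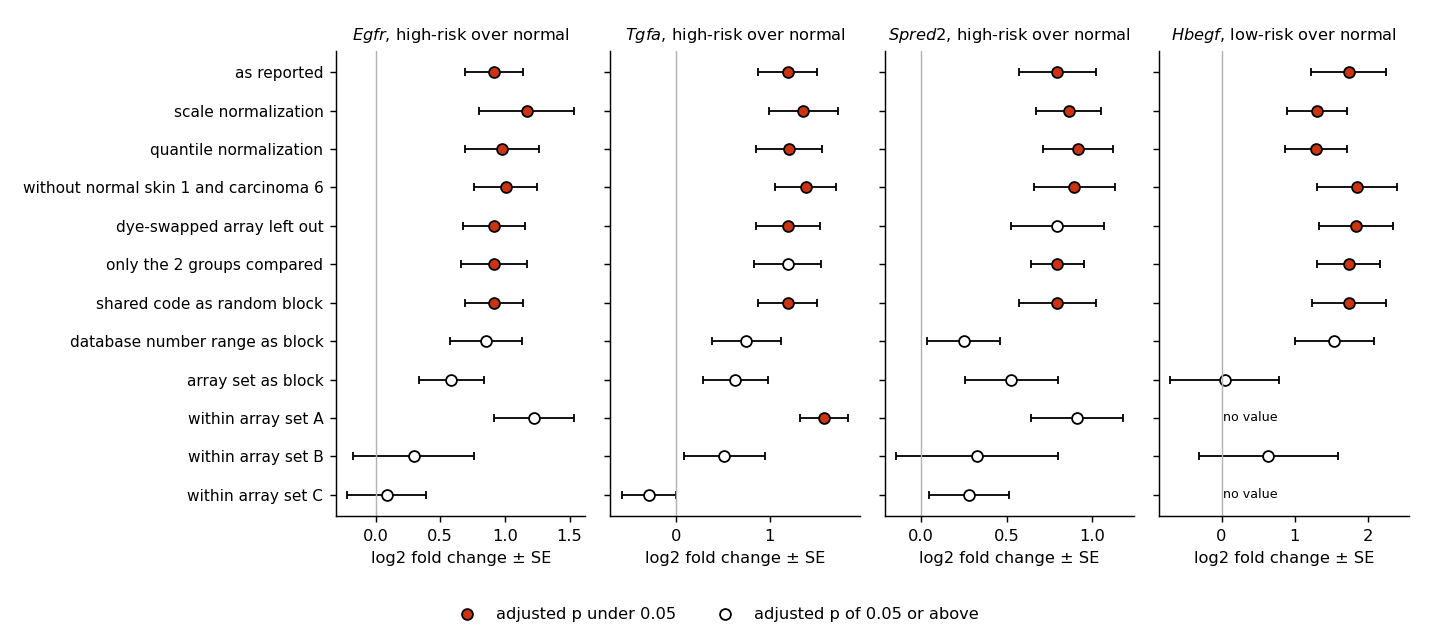
Log2 fold change (x axis, ± SE) of the 4 differences past the test, under 12 ways of fitting the data (rows); filled circles have an adjusted p under 0.05. Filled circles fill the rows of both normalizations and of the fit without the near-identical pair, and none fills the row with the array set as a block, where Hbegf falls to 0.04; within set A the high-risk arm is 1 papilloma.

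The promoters of the 3 genes that rose together in high-risk papillomas are shown because these genes rose in the same comparison, and each is the 300-base window listed for the gene in the promoter table, which for Tgfa lies mostly downstream of the start in the gene table. They are from RefSeq on mouse build GRCm38.p6, plus strand, at chr11:16751953-16752252 for Egfr, chr6:86194972-86195271 for Tgfa and chr11:19924192-19924491 for Spred2. Capitals mark every GC box, GGGCGG on either strand.
Egfr: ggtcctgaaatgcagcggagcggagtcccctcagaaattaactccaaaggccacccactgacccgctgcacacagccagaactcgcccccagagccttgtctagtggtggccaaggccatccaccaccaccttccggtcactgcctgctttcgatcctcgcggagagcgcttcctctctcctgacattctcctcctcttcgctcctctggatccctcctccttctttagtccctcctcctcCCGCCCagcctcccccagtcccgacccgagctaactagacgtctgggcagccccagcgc
Tgfa: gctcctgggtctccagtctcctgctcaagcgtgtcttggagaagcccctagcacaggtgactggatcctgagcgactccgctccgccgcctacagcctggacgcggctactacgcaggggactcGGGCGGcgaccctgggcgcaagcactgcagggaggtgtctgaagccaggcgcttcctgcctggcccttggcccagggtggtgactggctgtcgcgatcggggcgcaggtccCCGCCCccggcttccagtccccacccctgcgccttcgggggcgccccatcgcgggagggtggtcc
Spred2: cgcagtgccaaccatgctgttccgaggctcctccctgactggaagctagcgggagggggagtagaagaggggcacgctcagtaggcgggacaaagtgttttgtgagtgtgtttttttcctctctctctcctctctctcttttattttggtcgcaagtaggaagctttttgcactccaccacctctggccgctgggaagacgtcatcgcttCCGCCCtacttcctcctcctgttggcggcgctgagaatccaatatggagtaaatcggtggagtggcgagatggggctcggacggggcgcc
The promoters held 1 GC box in Egfr, 2 in Tgfa and 1 in Spred2, and their GC content was 62.3%, 70.7% and 57.0%, against a median of 52.7% over all 32851 promoters of the same length. A GC box lay in 5 of the 8 member promoters in the table and in 35.7% of all promoters. The AP-1 site TGANTCA, searched on both strands, was in 0 of the 8 and in 7.81% of all promoters, and the TATA box TATAAA was in 1 of the 8, that of Areg, and in 13.6% of all. The 3 motifs do not overlap one another in these letters, and a match or its lack describes only this window.

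Hbegf encodes heparin-binding EGF-like growth factor, a ligand induced in wounded and phorbol-treated epidermis. It ranged from 0.17 to 3.46 with a median of 0.83 in carcinomas, from 0.17 to 3.26 with a median of 1.57 in the 9 high-risk papillomas measured, from 0.73 to 4.05 with a median of 1.34 in low-risk papillomas and from -0.45 to 0.54 with a median of -0.08 in normal skin. Every low-risk papilloma lay above every normal skin, while 3 high-risk papillomas and 3 carcinomas lay within or below the highest normal skin. Low-risk papillomas averaged 1.68 ± 1.06 (n = 9) and normal skin -0.05 ± 0.38 (n = 6), 3.32-fold higher with a 95% interval of 1.62 to 6.81 (log2 1.73 ± 0.51 SE, limma adjusted p = 0.0323).

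High-risk papillomas averaged 1.59 ± 1.06 (n = 9) for Hbegf, 3.12-fold over normal skin, and missed the test (log2 1.64 ± 0.51 SE, limma adjusted p = 0.054). This difference passed in 6 of 18 alternative fits. Among them were the fit without normal skin 1 and carcinoma 6 (1.76, adjusted p = 0.0463) and both other normalizations. It also passed in 4 of 16 fits that left out 1 replicate. High-risk over low-risk papillomas, the difference was -0.09 with a 95% interval of -1.02 to 0.83. In carcinomas the mean was 1.16 ± 1.24 (n = 6) and the difference from normal skin 1.21 ± 0.56 (SE, limma adjusted p = 0.386). Carcinoma 1 was the highest carcinoma at 3.46, and without it the difference was 0.75. The low-risk difference blocked on array set was 0.04 ± 0.74 (adjusted p = 0.998), and within set B, with 3 low-risk papillomas and 1 normal skin, it was 0.64. Low-risk papilloma 8 was far above the others at 4.05, and without it the difference was 1.44 (adjusted p = 0.0612). The call was also lost without low-risk papilloma 4 or 5, or without normal skin 3, 4, 5 or 6, at an adjusted p of up to 0.0757.

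Epiregulin (Ereg) and betacellulin (Btc), ligands of both Egfr and Erbb4, passed the test in none of the 6 comparisons by limma. Ereg was measured in 3 high-risk papillomas only, at 0.78, 2.27 and 3.08, and in 5 carcinomas, at 0.42, 0.86, 0.87, 1.86 and 2.61. It ranged from 0.15 to 7.12 with a median of 2.43 in the 9 low-risk papillomas and from 0.64 to 1.76 with a median of 1.16 in normal skin. The groups overlapped in every pairing, and low-risk papillomas were the most spread, with an SD of 2.04. Low-risk papillomas over normal skin, Ereg differed by 1.50 ± 0.71 (SE, limma adjusted p = 0.200), and without low-risk papilloma 5, at 7.12, by 0.94.

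Btc ranged from -0.24 to 0.33 with a median of 0.06 in the 5 carcinomas measured, from -0.37 to 1.87 with a median of 0.12 in 8 high-risk papillomas, from -0.71 to 4.21 with a median of 0.99 in 9 low-risk papillomas, and from -0.08 to 1.03 with a median of 0.65 in normal skin. Carcinomas were the tightest group, within the range of low-risk papillomas. Carcinomas over low-risk papillomas, Btc differed by -1.09 ± 0.48 (SE, limma adjusted p = 0.259), and without low-risk papilloma 9, at 4.21, by -0.70.

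Among the inhibitors, Spry1 had its lowest mean in carcinomas. It encodes Sprouty 1, an inhibitor of receptor tyrosine kinase signalling. Its level ranged from -0.56 to -0.04 with a median of -0.38 in carcinomas, from -0.26 to 0.65 with a median of 0.28 in high-risk papillomas, from -0.35 to 2.31 with a median of 0.49 in low-risk papillomas and from -0.17 to 1.16 with a median of 0.85 in normal skin. All 6 carcinomas were below 0, and apart from normal skin 1 every normal skin was above every carcinoma, the lowest of them at 0.60.

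Carcinomas averaged -0.35 ± 0.19 for Spry1 and normal skin 0.73 ± 0.49 (n = 6 each), a log2 difference of -1.08 ± 0.31 (SE) that missed the test (limma, adjusted p = 0.0838). Without normal skin 1 and carcinoma 6 the difference was -1.32 and passed (adjusted p = 0.0235), and it passed under scale normalization (-1.16, adjusted p = 0.0043), quantile normalization (-1.27, adjusted p = 0.00265) and in a fit of these groups alone (adjusted p = 0.0239). Blocked on array set it was -0.88 (adjusted p = 0.643). Within set C, which holds both doubted libraries, it was 0.04. Carcinomas over low-risk papillomas, Spry1 differed by -0.87 ± 0.28 (adjusted p = 0.108), and carcinomas over high-risk papillomas by -0.61 ± 0.28 (adjusted p = 0.435), with 6 of 6 carcinomas below the mean of either papilloma group. Without low-risk papilloma 6 the difference from low-risk papillomas was -0.97 and passed (adjusted p = 0.042). Blocked on array set it was -0.21 (adjusted p = 0.991), and within set B -0.36 (adjusted p = 0.575).

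Spry2, another Sprouty protein, and Dusp6, a phosphatase that inactivates ERK, had their highest means in carcinomas but overlapped between all groups. Spry2 ranged from 0.15 to 1.26 with a median of 1.03 in carcinomas, from 0.08 to 1.75 with a median of 0.57 in 9 high-risk papillomas, from -0.60 to 0.97 with a median of 0.41 in low-risk papillomas and from -0.75 to 0.54 with a median of 0.32 in normal skin. Carcinomas over normal skin, 6 of 6 carcinomas were above the normal skin mean and the difference was 0.72 ± 0.29 (SE, limma adjusted p = 0.299).

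Dusp6 ranged from 0.30 to 3.34 with a median of 0.84 in carcinomas, from -0.64 to 2.22 with a median of 0.45 in high-risk papillomas, from -0.19 to 2.67 with a median of 0.42 in 8 low-risk papillomas and from -0.54 to 0.67 with a median of -0.16 in normal skin. Carcinomas 3 and 4 were the highest at 3.34 and 2.43, and the other 4 lay at or below 1.11. The difference from normal skin was 1.40 ± 0.51 (SE, limma adjusted p = 0.212), 1.33 blocked on array set, 1.01 without carcinoma 3, and -0.34 within set C, where it turned.

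**Figure D3:**
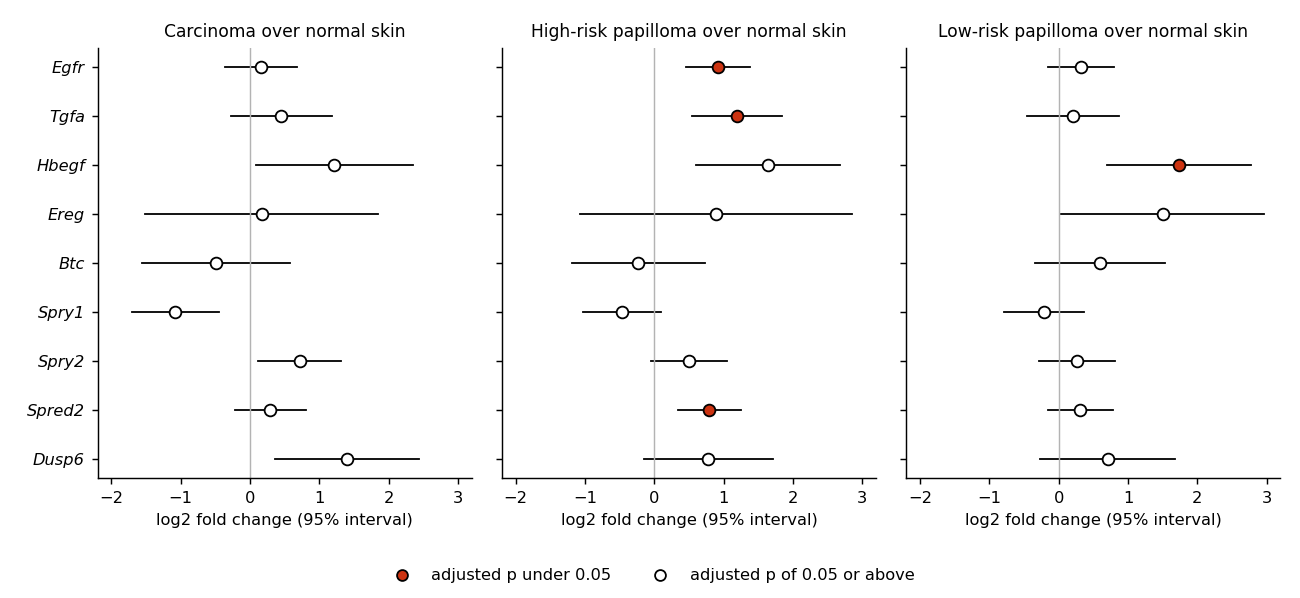
Log2 fold change over normal skin (x axis, bars are 95% intervals) of the 9 genes in carcinomas (left), high-risk papillomas (middle) and low-risk papillomas (right); filled circles have a limma adjusted p under 0.05. Egfr, Tgfa and Spred2 are filled in the middle panel, Hbegf in the right panel and no gene in the left panel, where Spry1 lies farthest below 0 at -1.08.

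Between tumour groups no member passed the test by limma. Carcinomas over high-risk papillomas, 0 of 9 passed and 4 had an unadjusted p under 0.05, where 0.0423% of all probes passed and 10.5% had such a p. These 4 were lower in carcinomas: Egfr by -0.76 ± 0.23 (SE, limma adjusted p = 0.215), Tgfa by -0.74 ± 0.32 (adjusted p = 0.409), Spred2 by -0.50 ± 0.22 (adjusted p = 0.434), and Spry1 as above. Blocked on array set, these differences were -0.29 for Egfr, -0.013 for Tgfa, -0.31 for Spred2 and -0.44 for Spry1. For Tgfa the difference was 0.14 within set B and 0.08 within set C. Each of the 6 carcinomas lay below the high-risk mean for these 4 genes.

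High-risk over low-risk papillomas, 0 of 9 passed and 3 had an unadjusted p under 0.05, where 0.667% of all probes passed and 17.3% had such a p. Besides Tgfa these were Egfr, at 0.59 ± 0.20 (SE, limma adjusted p = 0.139), and Spred2, at 0.48 ± 0.20 (adjusted p = 0.209). Under quantile normalization Egfr (1.18, adjusted p = 0.0405) and Tgfa (1.46, adjusted p = 0.0411) passed. Blocked on array set, neither passed, at 0.26 for Egfr and 0.13 for Tgfa (adjusted p = 0.9999 for both), and Spred2 was at -0.23. Within set B, Egfr was at 0.057, Tgfa at 0.00033 and Spred2 at -0.32. Carcinomas over low-risk papillomas, 0 of 9 passed and 2 had an unadjusted p under 0.05, Btc and Spry1, where 1.12% of all probes passed and 16.1% had such a p.

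The other genes of the pathway were described from a list of 51 ligands, receptors, adaptors, Ras proteins, kinases, inhibitors and ERK targets, chosen with earlier results of these data known. A probe was found for 39 of the 51 and 37 were tested. In high-risk papillomas over normal skin, 0 rose and 1 fell, or 2.70% of the list against 5.01% of all probes. It was Errfi1, which encodes Mig6, an inhibitor that binds the EGF receptor kinase. In low-risk papillomas over normal skin 3 rose and 0 fell, 8.11% of the list against 7.55% of all probes, and in carcinomas over low-risk papillomas 1 rose and 0 fell, 2.70% against 1.12%. Shares this near the background are no result about the list. In the other 3 comparisons 0 of 37 passed by limma. An unadjusted p under 0.05 was held by 8.11% of the list in carcinomas over high-risk papillomas, by 27.0% in high-risk over low-risk papillomas and by 13.5% in carcinomas over normal skin, against 10.5%, 17.3% and 11.3% of all probes. The list's median lay between -0.07 and 0.08 in all 6 comparisons, and that of all probes between -0.02 and 0.02.

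Errfi1 ranged from -1.49 to 0.51 with a median of -0.43 in carcinomas, from -2.36 to 0.06 with a median of -1.28 in high-risk papillomas, from -2.30 to 0.23 with a median of -0.89 in low-risk papillomas and from -0.78 to 0.75 with a median of 0.08 in normal skin. All 10 high-risk papillomas were below the normal skin mean, and the groups overlapped. High-risk papillomas over normal skin, it fell by 1.37 ± 0.37 on the log2 scale (SE, limma adjusted p = 0.0277). Blocked on array set it was -1.74 (adjusted p = 0.116), within set B -0.73 and within set C -1.53. Without normal skin 3, 4 or 5 or high-risk papilloma 3 the call was lost, at an adjusted p of up to 0.085.

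The 3 genes that rose in low-risk papillomas over normal skin were Sos2, an exchange factor that loads Ras with GTP, and Ier3 and Plaur, which are induced downstream of ERK. Sos2 ranged from 0.15 to 0.98 in 7 low-risk papillomas and from -0.995 to 0.11 in 6 normal skins, with no overlap, and differed by 0.88 ± 0.22 (SE, limma adjusted p = 0.0153). Ier3 ranged from 0.15 to 2.03 in 7 low-risk papillomas and from -0.50 to 0.81 in 5 normal skins and differed by 1.36 ± 0.36 (adjusted p = 0.0203). Plaur, the urokinase receptor, ranged from -0.34 to 1.24 in 7 low-risk papillomas and from -1.19 to -0.02 in normal skin and differed by 0.89 ± 0.24 (adjusted p = 0.0228). With the array set as a block none of the 3 passed, at 0.43, 1.90 and 0.71 (adjusted p = 0.915, 0.663 and 0.786), and without normal skin 3 none passed.

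Dusp4, a nuclear phosphatase of MAP kinases, rose in carcinomas over low-risk papillomas. It ranged from 0.00 to 1.07 in carcinomas, or 0.004 at the lowest, and from -1.06 to 0.31 in low-risk papillomas. The groups overlapped only through low-risk papillomas 6 and 7, the only ones above 0. The difference was 0.90 ± 0.22 (SE, limma adjusted p = 0.0381), and 0.54 when blocked on array set (adjusted p = 0.741). It lost its call without carcinoma 6 and normal skin 1 (0.93, adjusted p = 0.0573) and on leaving out any 1 of 8 replicates, among them carcinomas 1, 2, 3 and 6.

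Of the Ras genes, Nras was tested. Nras ranged from -0.13 to 1.69 in 5 carcinomas, from -0.70 to 2.12 in 7 high-risk papillomas, from 0.25 to 2.91 in 7 low-risk papillomas and from 0.21 to 0.62 in 6 normal skins. Normal skin was the tightest group and lay inside the range of the carcinomas and of the high-risk papillomas. Nras passed the test in none of the 6 comparisons by limma, and its smallest unadjusted p was 0.0832, for high-risk over low-risk papillomas at -0.74 ± 0.41 (SE, adjusted p = 0.352).

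Single markers of some cell types also passed the test. The median level of the keratinocyte markers ranged from 0.77 to 2.07 in carcinomas, from 1.49 to 4.62 in high-risk papillomas, from 0.58 to 3.97 in low-risk papillomas and from 0.81 to 2.32 in normal skin. Of 8 keratinocyte markers tested, 1 (Sfn) rose in high-risk papillomas over normal skin, with a list median of 0.76 beside the members' 0.80, and 0 passed in the other comparisons with normal skin. Of 4 hair follicle markers 1, the inner root sheath keratin Krt71, fell in each of the 3 tumour groups over normal skin. In either papilloma group 1 of 4 neutrophil markers rose over normal skin, S100a8 alone (list median 0.36 in high-risk and 0.25 in low-risk papillomas). There 1 of 4 muscle markers (Acta1) fell (list median -0.64 in high-risk and -1.08 in low-risk papillomas). In low-risk papillomas 2 of 4 T cell markers (Cd3e and Cd8a) fell (list median -0.88). In high-risk papillomas the fibroblast marker Dcn fell, 1 of 6 tested, while the list median was 0.41. In low-risk papillomas the endothelial marker Pecam1 fell, 1 of 5 (list median -0.28), and the internal organ marker Umod fell, 1 of 9 (list median 0.07). The adipocyte marker Fabp4 rose there, 1 of 2 (list median 1.35). Over normal skin, 5.01% of all probes passed in high-risk papillomas, 7.55% in low-risk papillomas and 1.16% in carcinomas. Between tumour groups no marker passed, where 0.0423% to 1.12% of all probes did. Carcinomas over high-risk papillomas, the list medians farthest from 0 were those of adipocytes (1.52, 2 markers), macrophages (1.25, 3 markers) and keratinocytes (-0.75, 8 markers). The part of these marker shifts in the members' differences was not tested.

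The genes whose levels followed each member most closely were ranked by Pearson's r over the replicates where both were measured, at least 25 of 31. These values describe arrays that share a reference RNA and the array sets above, and no test was made. Egfr was followed by Nit2, Arpp19 and Tsc2 (r = 0.897, 0.892 and 0.886 over 31 replicates), and Tgfa ranked 16 of 11995 genes at r = 0.846. Tgfa was followed by Mrps9, Ext2 and Ubl5 (r = 0.935, 0.935 and 0.917), and Spred2 by Snhg3, Dazap1 and Nmd3 (r = 0.883, 0.826 and 0.818), with Spred2 and Tgfa at r = 0.723. The ligands Hbegf and Btc were followed by other genes. Hbegf was followed by Pdk4, Csn1s1 and Pfkl (r = 0.876, 0.874 and 0.841) and Btc by Zfp74, Col8a2 and Fgf7 (r = 0.924, 0.920 and 0.914). Spry1 was followed by Ahcyl2, Osbpl5 and Arntl (r = 0.810, 0.808 and 0.806), with Btc at rank 16 of 11995 (r = 0.735) and Spred2 at r = -0.501. Spry2 (Uvssa, Plk3 and Il24) and Dusp6 (Dynap, Tnfrsf23 and Ccl7) had no gene above r = 0.711, and Ereg was measured in too few replicates to rank.

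The 10 papillomas of unknown risk were measured on the second design, whose table was normalized separately, so they are described without a comparison. Tgfa was above 0 in 10 of 10, from 1.99 to 6.58 with a median of 2.49, Hbegf in 10 of 10, from 0.19 to 3.76 with a median of 1.18, and Spry2 in 10 of 10, from 0.28 to 2.21 with a median of 0.94. Unknown papilloma 4 had the highest Tgfa, and the other 9 lay at or below 3.91. Egfr had 2 probes that differed: 1 ranged from 1.00 to 3.25 with a median of 1.23 and was above 0 in 10 of 10, and the other from -1.82 to 1.39 with a median of 0.12 and was above 0 in 6 of 9. They are annotated with different transcripts. The probe with the higher median carries the transcript record of the first-design Egfr probe and another record. The probe near 0 carries only that other record, which the first design did not measure by annotation. The 2 probes of Ereg also differed, with medians of 6.21 (3.60 to 10.74) and 2.41 (-0.01 to 4.50).

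Btc ranged from -8.10 in unknown papilloma 2 to 1.95 in unknown papilloma 7, with a median of -0.15. Both probes of Spry1 had medians near 0, at 0.18 and 0.22, and both of Dusp6 had medians of 0.68 and 0.74, with 7 of 10 papillomas above 0 on each. Spred2 was below 0 in most, with 2 of 10 above 0 on 1 probe (median -0.63) and 1 of 10 on the other (median -0.34). The order within a tumour also differed between probes of 1 gene: unknown papilloma 1 had the highest value of 1 Spry1 probe, 3.88, and -0.40 on the other.

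**Figure D4:**
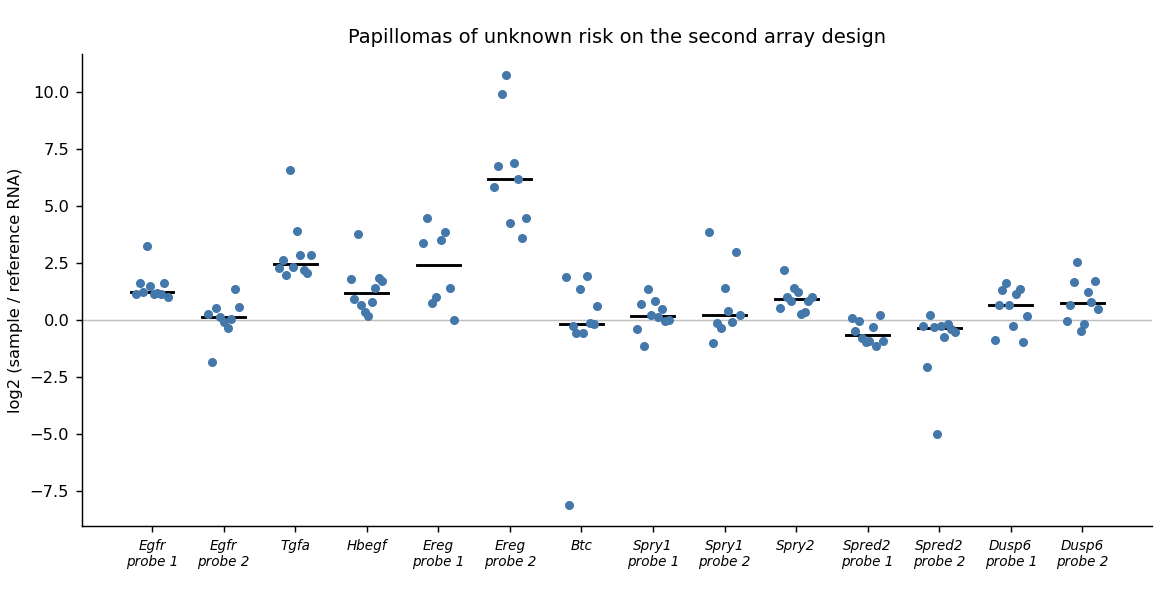
Levels in the 10 papillomas of unknown risk, as log2 of sample over reference RNA (y axis), for each of 14 probes of the 9 genes (x axis); points are papillomas and the black line is the median. One Ereg probe reaches 10.74 in unknown papilloma 5, and Btc in unknown papilloma 2 lies at -8.10, far from the other 9.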

How the data were processed

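RNA of whole mouse skin or tumour was labelled with 1 dye by aminoallyl coupling and a universal mouse reference RNA with the other, per the labels' protocols. The authors deposited, for each of 2 array designs, a table of log2 ratios: per the values, which reach sizes that another log base could not, the base is likely 2. Scanner, background correction, spot filter, normalization and direction are not given in the sources used here, and no column of sample values went unused. Probes were named through the platform annotation: 1 symbol was paired with 16076 of the 21997 probes of the first design, several with 288 and none with 5633, and for the 36924 of the second these numbers were 26926, 203 and 9795.

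Every array except that of low-risk papilloma 3, where the dyes were exchanged, was negated, and each was centred on its median. Low-risk papilloma 3 carries the tumour code of low-risk papilloma 1, and they were averaged. A probe was tested when it had values in 3 or more replicates of each group and in 70% of all, keeping for each gene the probe with most values, which gave 18904 probes, 13465 with a symbol. One linear model over the 4 labelled groups was fitted with limma 3.58.1 (R 4.3.3; lmFit and eBayes) and p-values were adjusted by Benjamini-Hochberg over all probes of a comparison, with a threshold of 0.05. The fit was run on simulated data with independent arrays and, for a given probe, the same SD on every array. That simulation left out the array sets and their unequal spread, so it cannot show how the fit behaves with them. Samples were grouped and numbered by title. The source names of low-risk papillomas 3 and 10 give other replicate numbers, 1 (marked as reversed) and 3, so these numbers are in doubt. The 10 papillomas labelled unknown entered no comparison. Fold changes are printed where an unadjusted p was under 0.05, and also for Hbegf and Nras in high-risk over low-risk papillomas, where it was not. Pathway genes are named where they passed, up to 6 for each comparison by smallest p, with the Ras genes. The members and lists were chosen with earlier results of these data known. Array sets came from clustering the arrays on which probes were empty (complete linkage, 5 sets). Alternatives covered normalization, filters, probe summary, the exchanged array, the near-identical pair, blocks, the variance model, array weights and each replicate left out. The number of arrays limits the precision, and depth in reads does not apply.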

Additional observations from a re-analysis of the deposited data

Results flagged for a closer look

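Within groups of 4 to 10 values, 6 of the 35 sets of member levels held 1 replicate far from the rest. Chance gives about 1 in 20 where all values of a group share 1 spread. The groups mix array sets of unlike spread, so the 2 rates cannot be compared as a result about these genes. Tgfa in normal skin 1 was at 1.960, with the next normal skin at 0.951, and this is the normal skin array nearly identical to carcinoma 6. Btc in high-risk papilloma 10 was at 1.867, against 0.615 for the next. Low-risk papillomas held the other 4. Low-risk papilloma 9 was far above the others for both Btc, at 4.212 against 1.712, and Spry1, at 2.312 against 0.888. Hbegf in low-risk papilloma 8 was at 4.046, against 2.402. Dusp6 in low-risk papilloma 2 was at 2.668, against 0.890. Low-risk papillomas 2, 8 and 9 all belong to array set D, where values were spread more widely than in sets A to C. What set these replicates apart was not tested.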

How the results depend on the processing

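Alternatives were run one at a time. For high-risk papillomas over normal skin, 3 members passed the test as reported, where 5.01% of all probes did. With the array set as a block 0 members and 0.0635% of all probes passed. With the database number range as a block these were 0 and 0.296%, and with array weights 5 and 20.95%. For low-risk papillomas over normal skin, 1 member passed as reported, where 7.55% of all probes did. With the array set as a block 0 members and 0.0265% of all probes passed. With the database number range as a block these were 0 and 6.81%, and with array weights 4 and 21.95%. Among the 4 members measured in all replicates 0 passed, where 10.8% of the probes so measured did. For carcinomas over normal skin, 0 members passed as reported, where 1.16% of all probes did. Under scale normalization 1 member and 3.73% of all probes passed, and under quantile normalization 2 and 4.67%. Without normal skin 1 and carcinoma 6 these were 1 and 2.62%, and in a fit of these groups alone 1 and 3.7%. With array weights 4 members and 18.27% of all probes passed. For high-risk over low-risk papillomas, 2 members passed under quantile normalization, where 0.36% of all probes did. For carcinomas over low-risk papillomas, 2 passed with array weights, where 8.18% of all probes did. As reported 0 passed in both.

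Leaving out each replicate in turn, the count ranged from 0 to 4 for high-risk papillomas over normal skin, from 0 to 1 for low-risk papillomas, carcinomas over normal skin, high-risk over low-risk papillomas and carcinomas over low-risk papillomas, and was 0 throughout for carcinomas over high-risk papillomas.

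Signs turned in 8 fits. Carcinomas over high-risk papillomas, Tgfa was at 0.14 within set B and 0.081 within set C. High-risk over low-risk papillomas, Spred2 was at -0.23 with the array set as a block and -0.32 within set B. Carcinomas over normal skin within set C, Hbegf was at -0.21, Spry1 at 0.038 and Dusp6 at -0.34. High-risk papillomas over normal skin within set C, Tgfa was at -0.30. The cause was not tested.

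Replicate numbers in the labels do not pair the samples: same-numbered samples of different groups had a median correlation of deviations of -0.025 over 37 pairs. With the replicate number as a block, 3 members passed for high-risk papillomas over normal skin, Hbegf (1.80, adjusted p = 0.0374) in place of Spred2 (0.80, adjusted p = 0.0569), 1 for low-risk papillomas over normal skin and 0 in the other 4 comparisons. In that fit 4.03% of all probes passed for high-risk and 4.95% for low-risk papillomas over normal skin. Counts over all probes moved with the setting too. For high-risk papillomas over normal skin 948 passed as reported, 1527 under scale normalization, 12 when blocked on array set and 3961 with array weights. The number of arrays, an unstated spot filter that leaves values empty and 1 probe for each gene limit what these values can show.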
